A study of Mus musculus with 10 samples.

Results

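RBPJ is the DNA-binding protein through which Notch receptors control transcription. Once a Notch receptor is cleaved, its intracellular domain enters the nucleus and joins RBPJ on its target genes, whereas in the absence of that domain RBPJ can recruit corepressors. RBPJ contacts both promoters and distant elements such as enhancers, and in pericytes, the mural cells that wrap around capillaries, Notch signalling is known for its role in the maintenance of the vessel wall. The wide sites of the RBPJ peak list that lie away from gene starts are described here. A site was taken when its width (end minus start plus 1) was at least 1500 bp, its centre was more than 5 kb away from any transcription start site (TSS) annotated to a coding transcript, and no TSS of a non-protein-coding gene fell within 1 kb of its centre. This left 906 broad distal intervals out of 11094 peaks, or 8.17% of the list, covering 2.96 Mb and 22.9% of all bases under peaks. The intervals were thus chosen by width and distance, measured on the same list, and both are given only as description.

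The peaks came from chromatin immunoprecipitation and sequencing (ChIP-seq) of untreated RD1 cells, a line whose labels give mouse brain pericytes as the cell type, grown on collagen I in pericyte medium. RBPJ was precipitated in 2 of the 10 samples, as replicates 1 and 2. Samples for histone H3, H3K4me1, H3K4me3 and input were not analysed here. Both RBPJ files were identical in every byte and hold 1 consensus list without scores, summits or read counts. Depth and the spread between replicates are thus not given in the files used here, intervals and p-values cover counting error over sites only, and sites of 1 list are not replicates of a condition. A list of binding sites cannot be checked against expressed marker genes. The study's methods state that pericyte markers were assessed by RT-qPCR and immunostaining in its cultured brain pericytes, without naming RD1. Positions refer to GRCm38 (sequence of GRCm38.p6) and gene annotation to GENCODE M21.

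The core sequence recognised by RBPJ is TGGGAA, or TTCCCA when read on the other strand. Windows of 200 bp are printed below from intervals assigned to a matrix gene that is responsive to TGF-beta (Tgfbi), to 3 genes of the Notch pathway itself (Nrarp, Notch1 and Rbpj), to fibronectin (Fn1) and to the growth factor gene Bmp4, because these genes are taken up again in the results. The names are those of the assigned genes, and the nearest gene was Lect2 for the Tgfbi window, Egfl7 for the Notch1 window and Cdkn3 for the Bmp4 window. The plus strand is given 5′ to 3′, in lower case with each TGGGAA or TTCCCA in capitals, and each window is the first in its interval that holds the highest number of sites. None of these windows overlapped an annotated exon.
Tgfbi, chr13:56553517-56553716, GRCm38.p6, + strand: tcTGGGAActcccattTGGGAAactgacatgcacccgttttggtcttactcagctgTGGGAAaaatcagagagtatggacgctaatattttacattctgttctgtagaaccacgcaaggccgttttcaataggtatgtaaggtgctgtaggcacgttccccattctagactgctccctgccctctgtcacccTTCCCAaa
Nrarp, chr2:25168059-25168258, GRCm38.p6, + strand: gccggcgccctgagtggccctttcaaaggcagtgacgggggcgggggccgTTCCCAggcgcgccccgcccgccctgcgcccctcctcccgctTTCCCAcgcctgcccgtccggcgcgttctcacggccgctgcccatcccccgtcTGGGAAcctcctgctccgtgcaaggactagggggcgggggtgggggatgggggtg
Notch1, chr2:26555141-26555340, GRCm38.p6, + strand: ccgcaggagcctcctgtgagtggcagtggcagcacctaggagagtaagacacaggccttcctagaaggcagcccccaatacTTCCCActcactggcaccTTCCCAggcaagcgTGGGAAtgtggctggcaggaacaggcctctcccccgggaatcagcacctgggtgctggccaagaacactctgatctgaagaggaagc
Rbpj, chr5:53437859-53438058, GRCm38.p6, + strand: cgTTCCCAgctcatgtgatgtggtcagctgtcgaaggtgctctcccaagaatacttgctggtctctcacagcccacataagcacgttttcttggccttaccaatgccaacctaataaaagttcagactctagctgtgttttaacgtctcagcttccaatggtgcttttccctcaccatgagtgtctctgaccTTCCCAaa
Fn1, chr1:71720042-71720241, GRCm38.p6, + strand: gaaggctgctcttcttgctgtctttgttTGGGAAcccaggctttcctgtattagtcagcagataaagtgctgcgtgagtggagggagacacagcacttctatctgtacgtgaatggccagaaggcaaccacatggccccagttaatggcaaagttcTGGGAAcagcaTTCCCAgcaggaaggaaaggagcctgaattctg
Bmp4, chr14:46636436-46636635, GRCm38.p6, + strand: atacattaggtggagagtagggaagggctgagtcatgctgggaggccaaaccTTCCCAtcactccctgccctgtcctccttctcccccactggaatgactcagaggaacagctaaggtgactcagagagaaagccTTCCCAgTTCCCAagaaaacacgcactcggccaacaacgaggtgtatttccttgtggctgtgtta

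The 906 intervals had a median width of 2319 bp, with quartiles of 1902.5 and 3274.5 bp, and ran from 1500 to 57541 bp. Near the lower limit the list was continuous, with 64 distal peaks up to 100 bp below it and 75 intervals less than 100 bp above it. The intervals closest to the limit measured 1500 bp near Gm26897, 1503 bp near Lrrfip2 and 1505 bp near Ripor3, and the widest peaks left out measured 1499 bp near Slit3, 1498 bp near Anp32a and 1497 bp near Edn3. The median distance from an interval centre to the nearest coding TSS was 30726 bp. For comparison, 3466 narrow distal peaks met the same distance rules below 1500 bp, and 1229 broad promoter peaks were at least 1500 bp wide with a centre within 1 kb of a coding TSS.

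A first question was which kind of sequence such wide sites contain. The authors discarded reads that matched more than 3 places in the genome, and the intervals were therefore divided by how often their own sequence recurs. An interval is called multi-copy when at least 10% of its 50-mers (all stretches of 50 bases, read on either strand) occur at more than 3 places of the primary assembly, and low-copy otherwise. Of the 906 intervals, 149 were multi-copy and 757 were low-copy, and among the multi-copy ones 113 had most of their 50-mers at more than a single place. The multi-copy share was 16.4% (95% Clopper-Pearson interval 14.1 to 19.0%) against 3.98% (3.36 to 4.69%) of narrow distal peaks, 12.5 percentage points more (Fisher's exact test, two-sided, with p = 1.20e-33 after Benjamini-Hochberg adjustment over 5 comparisons). Over all peaks this share was 3.54%. The share depended on the definition, and when at least 50% of the 50-mers had to occur at more than 3 places it was 5.19% against 1.99% (a difference of 3.20 points, Fisher's exact test, adjusted p = 1.31e-06), whereas with 36-mers it was 21.6% against 5.63%. Broad and narrow classes were split by width, and the Fisher tests here and below take sites as independent. However, 53 of the 149 multi-copy intervals lay in groups of 5 or more neighbouring intervals.

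Multi-copy sequence was concentrated in the wider intervals. It made up 7.30% of the 274 intervals of 1500 to under 2000 bp and 8.06% of the 360 intervals of 2000 to under 3000 bp. The share then rose to 29.7% of 165 intervals of 3000 to under 5000 bp, 45.9% of 74 intervals of 5000 to under 10000 bp and 51.5% of 33 intervals of 10000 bp and more. Over the same 5 classes the mean share of 50-mers found once in the reference went from 93.7% to 45.6%. Because width chose the intervals, this trend is given without a test.

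**Figure D1:**
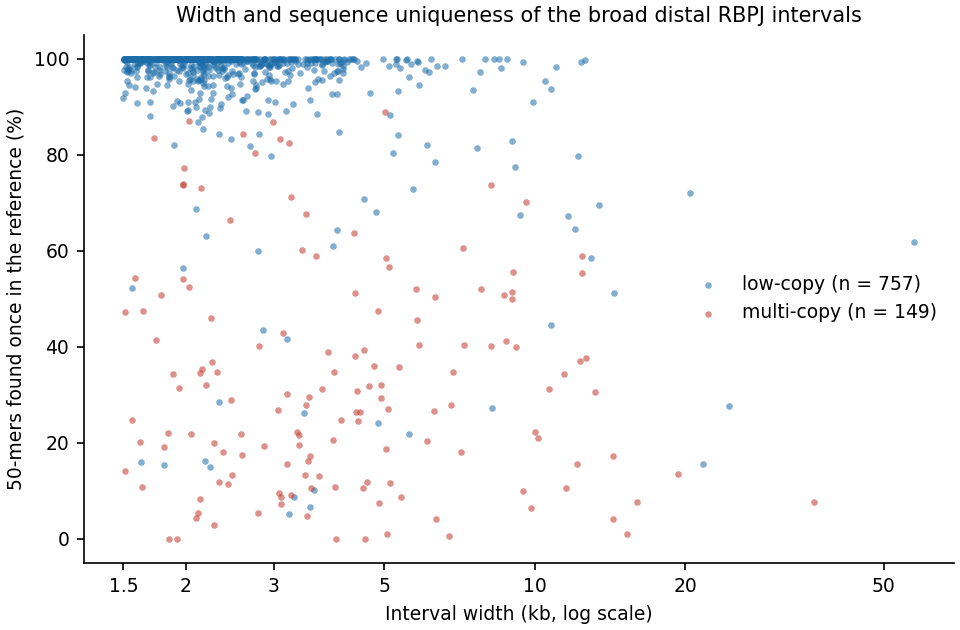
Each point is 1 of the 906 broad distal intervals, placed by its width in kb (log scale) and by the percentage of its 50-mers that occur once in the reference, with the 757 low-copy intervals in blue and the 149 multi-copy intervals in red. Most intervals below 3 kb lie near the top of the plot, and multi-copy intervals take up 51.5% of those of 10000 bp and more.

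The widest of the intervals was a 57541-bp interval on chromosome 17 over Smok2a and Smok2b, sperm motility kinase genes, with 61.8% unique 50-mers. It was followed by 36299 bp at Gm15319 on chromosome 8 (7.77% unique), 24442 bp in Tcp10c, a gene of the t-complex on chromosome 17 (27.6% unique), 21711 bp at the immunoglobulin Fc receptor gene Fcgr3 on chromosome 1 (15.6% unique) and 20488 bp upstream of the cytochrome P450 gene Cyp3a41b on chromosome 5 (72.0% unique). Of these 5, the Gm15319 interval was multi-copy, while in the other 4 between 21.2% (Cyp3a41b) and 82.0% (Fcgr3) of 50-mers occurred at 2 or 3 places, which the authors' read filter allowed. Intervals of more than 12 kb in unique sequence also existed. Singled out after their values were seen, a 12599-bp interval in Camk2a on chromosome 18 was 99.7% unique, and a 12392-bp interval in Trim11 on chromosome 11 was 99.3% unique. The nearest other peak lay 1313 bp from the Camk2a interval. The Trim11 interval ends at the round position 58990000, and other wide intervals also end on round positions, such as 77930000 and 93300000 on chromosome 10. Whether processing set such ends was not tested.

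Repeat content differed as well. At least 50% of the bases were soft-masked, the mark of interspersed and simple repeats in the reference, in 10.2% of broad distal intervals (8.26 to 12.3%) and in 4.18% of narrow distal peaks (3.54 to 4.90%), against 2.33% of all peaks (Fisher's exact test, adjusted p = 6.67e-11). Without multi-copy sites the values were 2.91% and 2.04%, and the difference no longer passed (Fisher's exact test, adjusted p = 0.281). The median soft-masked share was 16.6% in low-copy intervals and 46.8% in multi-copy ones.

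Broad intervals often had company. Another peak lay within 10 kb of 32.7% of them (29.6 to 35.8%), compared with 20.2% of narrow distal peaks (18.9 to 21.6%) and 20.5% of all peaks, a difference of 12.4 points (Fisher's exact test, adjusted p = 2.36e-14). Peaks near each other count for each other, so these sites are not independent, whereas the test and the ranges in parentheses take them as such. When members at most 100 kb apart were joined, the 906 intervals formed 703 groups, of which 589 held a single interval. Only 10 groups held 5 members or more, and they contained 78 intervals, 53 of them multi-copy.

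In 6 of the 10 groups every interval was multi-copy. On chromosome 13, 14 intervals spread over 353 kb around Prl2c2 and Prl2c3, which encode prolactin-family hormones of the placenta (proliferins). On chromosome 17, 13 intervals spanned 376 kb around Smok2a, Smok2b and Tcp10c. On chromosome 5, groups of 9 and 7 intervals lay at the Speer4e and Speer4c genes, of a rodent family expressed in testis, and another group held 6 intervals around Gm21663. Chromosome 8 carried 8 intervals around Gm15319, chromosome X 6 intervals between Btbd35f29 and Spin2f, and chromosome 1 5 intervals around A530032D15Rik. In all of these except the groups of chromosomes 13 and 17, every interval was multi-copy.

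The other 2 groups held low-copy intervals only. On chromosome 16, 5 intervals in 44.0 kb lay at Pdia5, a protein disulphide isomerase of the endoplasmic reticulum, and Sema5b, a semaphorin that guides axons. On chromosome 2, 5 intervals in 195 kb lay at 1700001O22Rik and Cstad. Neither group contained a multi-copy interval, and the median share of unique 50-mers was 100% in both.

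**Figure D2:**
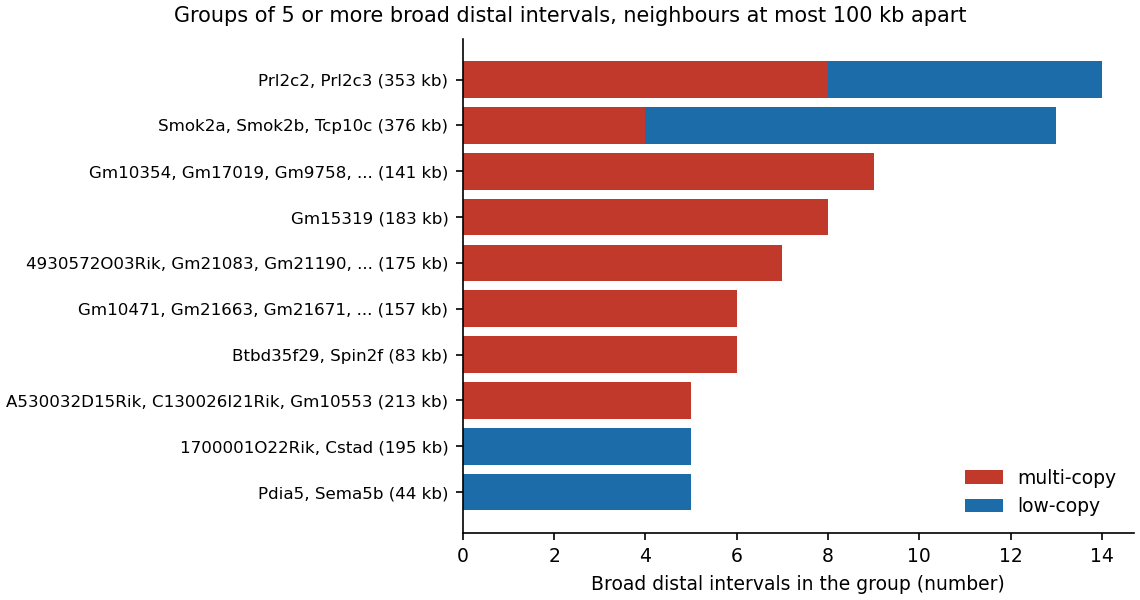
Bars give the number of broad distal intervals in each of the 10 groups of 5 or more whose neighbours are at most 100 kb apart, split into multi-copy (red) and low-copy (blue), with leading genes and span in kb at the left. The groups at Prl2c2 and at Smok2a, with 14 and 13 intervals, are mixed, 6 groups are wholly multi-copy, and those at Cstad and Pdia5 hold only low-copy intervals.

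By chromosome, most intervals were on chromosomes 1 (106) and 5 (102). Of the 31 intervals on chromosome X, 26 were multi-copy, as were 14 of 26 on chromosome 4 and 31 on chromosome 5, while chromosomes 9, 16 and 19 had 33, 31 and 20 intervals with 0 multi-copy. Chromosome 7 held 3 intervals and 146 peaks in all.

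Regarding genes, 36.4% of interval centres lay in an intron of a protein-coding gene (33.3 to 39.7%), 4.08% in an exon and 59.5% between genes. The intronic share was 39.5% (37.8 to 41.1%) in narrow distal peaks and 33% in all peaks, and the difference of -3.05 points did not pass the test (Fisher's exact test, adjusted p = 0.0997). This call depended on the width limit, since the difference passed at a minimum of 1000 bp (-3.75 points, Fisher's exact test, adjusted p = 0.0215), 2000 bp (-4.52 points, adjusted p = 0.0307) and 3000 bp (-11.2 points, adjusted p = 0.000238), and it turned to 0.723 points without multi-copy intervals (adjusted p = 0.890). By copy class, 40.7% of low-copy but 14.8% of multi-copy intervals were intronic.

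The next question was where the RBPJ motif sits. Over whole intervals TGGGAA occurred 3443 times, at least once in 94.7% of intervals, compared with 89.6% of adjacent flanks of the same width. The median interval had 3 sites and the richest had 59, 244 intervals had 5 or more, and 48 had 0. Density was 1.16 sites per kb inside and 0.979 per kb in the flanks, a ratio of 1.19. It was higher inside in 483 of 794 untied intervals, or 60.8% (two-sided exact sign test against the mean of both flanks, p = 1.12e-09). This share was 71.8% in narrow distal peaks and 58.1% over all peaks. These classes differ in width, with a median of 690 bp over all peaks, so the shares are not like for like. The longer motif GTGGGAA did not pass the same exact sign test (52.8% above, p = 0.163), and in the intervals of 5000 to under 10000 bp TGGGAA was denser inside in 46.3% of 67 untied intervals. The share was 71.0% of 31 untied intervals of 10000 bp and more and between 60.9% and 63.1% in the narrower classes. The same ratio was 2.08 for narrow distal peaks, with 2.08 sites per kb inside. It was 1.21 for low-copy intervals (61.7% above, p = 1.52e-09) and 1.11 for multi-copy intervals (56.2% above, p = 0.188), whose shares did not differ by Fisher's exact test (p = 0.240).

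The centre of broad intervals held the motif less often than that of narrow ones, whose central window takes up more of the peak. Within the central 200 bp, TGGGAA was found in 17.1% of broad distal intervals (14.7 to 19.7%) but in 41.4% of narrow distal peaks (39.7 to 43.0%) and 25.8% of all peaks, a difference of -24.3 points. Within the central 1000 bp the shares were 65.2% and 78.2%, a difference of -13.0 points. The classes were split by width and the window covers a different part of each, so no p-value is given here. Sites were instead found towards the ends. When low-copy intervals were divided into 10 equal parts, the 4 central parts had 1.04 sites per kb, which is close to the 1.03 per kb of the flanks, whereas the 6 outer parts had 1.40. In narrow distal peaks the order was the opposite, with 2.42 per kb in the central and 1.88 in the outer parts.

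Distance from the interval end showed this more directly. In low-copy intervals TGGGAA density was 1.09 per kb outside (beyond 100 bp), rose to 2.07 per kb in the first 150 bp inside, and was 1.57 per kb between 150 and 300 bp and 1.19 per kb between 300 and 750 bp from the end. In the 50-bp steps it was highest between 50 and 100 bp from the end, with 2.55 sites per kb. Narrow distal peaks had 2.41 per kb in their first 150 bp. Multi-copy intervals stayed at 0.940 per kb in the first 150 bp, against 0.860 outside.

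**Figure D3:**
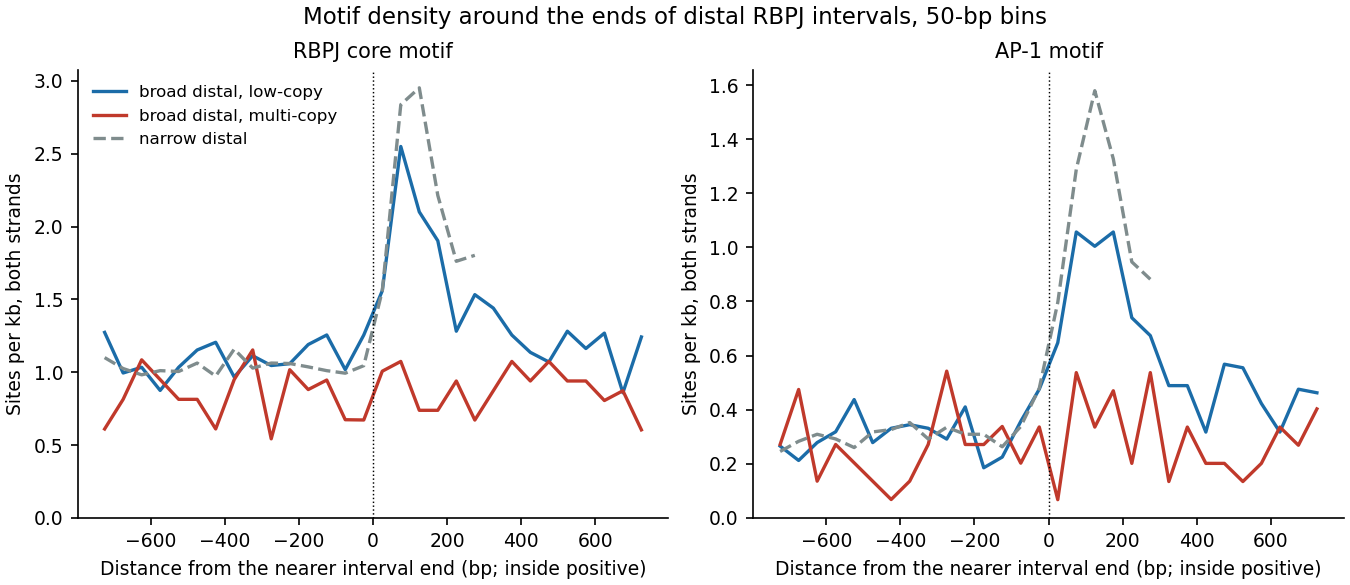
Density of the RBPJ core motif (left) and of the AP-1 motif (right), in sites per kb on both strands, is plotted against distance in bp from the nearer interval end in 50-bp bins, with positive distances inside, for low-copy (blue) and multi-copy (red) broad distal intervals and narrow distal peaks (dashed, drawn to 300 bp). The low-copy line rises to 2.55 RBPJ sites per kb at 50 to 100 bp inside and returns towards the outside level further in, and the multi-copy line has no such rise.

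Sites in the outermost 250 bp of both ends were also counted against the central 500 bp of the same interval. These windows were chosen after the profile of the same intervals had been seen, so the TGGGAA values restate it and are given as description, with no test. The ends held 1.68 and the centre 1.01 sites per kb, a ratio of 1.67, and the ends were ahead in 368 of 570 untied intervals, or 64.6%. In low-copy intervals the ends had 1.85 per kb and were ahead in 67.7%. In multi-copy intervals they had 0.859 per kb against 0.980 in the centre and were ahead in 43.2% of 74 untied intervals. The pattern is not particular to distal sites, since over all peaks of at least 1500 bp the ends were ahead in 64.9%, and in broad promoter peaks in 65.7%.

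Among the 757 low-copy intervals, 303 had TGGGAA in the left and 262 in the right end window, 111 had TGGGAA in both end windows, 343 in a single end window and 303 in neither. In the 2 central windows of 250 bp the corresponding numbers were 38, 263 and 456. By width, the ends had 1.96 sites per kb in the 254 low-copy intervals of 1500 to under 2000 bp (73.2% ahead) and 1.79 in the 331 of 2000 to under 3000 bp (65.6%). In the 116 low-copy intervals of 3000 to under 5000 bp the ends were ahead in 65.3%, and the classes from 5000 bp upwards had only 23 and 12 untied intervals. Over all 272 intervals of at least 3000 bp, multi-copy included, the share was 56.6%. The methods state that peaks within 2 kb were merged, yet in the deposited list 17 of the 906 intervals had another peak less than 2 kb away, the smallest gap being 112 bp. The files hold no summits, and the part of merging in this pattern was not tested.

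Motifs of 15 other factors were searched in the same way on both strands, and none was required to avoid overlap with another. The motifs were TGANTCA for AP-1 (dimers of Fos and Jun), TGACGTCA for the cyclic AMP response element (CRE), TGTGGT for RUNX, GGAATG for TEAD (the partners of YAP), the E-boxes CACGTG and CAGCTG bound by basic helix-loop-helix factors, CCGGAA for ETS, TTGGCA for nuclear factor I (NFI), the CTCF core, GGGCGG for the GC box of Sp and Klf factors, CCAAT for NF-Y, the CArG box of serum response factor, TTCNNNGAA for STAT, ACANNNTGT for steroid receptors and GTCTAGAC for a SMAD palindrome.

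The AP-1 motif was denser in the intervals than in their flanks and denser at the ends than in the centre. TGANTCA was present in 69.3% of broad distal intervals and 52.9% of flanks of the same width, at 0.450 sites per kb against 0.303, a ratio of 1.49 with 61.6% of untied intervals above the mean of their flanks (exact sign test, adjusted p = 3.22e-09 over 16 motifs). The same ratio was 3.31 in narrow distal peaks (72.3% above) and 0.777 in broad promoter peaks (34.4% above). Within the broad distal intervals AP-1 had 0.797 sites per kb at the ends against 0.362 in the centre, with 70% of untied intervals ahead (exact sign test, adjusted p = 4.01e-12). Those windows had been chosen on RBPJ in the same intervals, and AP-1 was profiled along the same ends. In low-copy intervals the AP-1 motif reached 1.06 per kb between 50 and 100 bp from the end, from 0.301 per kb outside.

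Against the mean of both flanks, 5 of 16 motifs were above, namely RBPJ, AP-1, the CAGCTG E-box, the NFI motif and the GC box, and 4 were below, namely CCAAT (40.2% above), the CArG box (36.1%), CACGTG (42.1%) and CRE (31.1%). The number above was 3 with soft-masked bases left out and 2 at a minimum width of 3000 bp. The GC box had the highest ratio of these, 1.84, and was present in 43.4% of intervals and 30.7% of flanks. This form of the sign test leans downwards for rare motifs, because 1 window is set against the mean of 2 windows. Each flank was therefore also used alone, a comparison added after seeing the data. Against the left flank 10 motifs were above and 1 below, and against the right flank 7 were above and 1 below (adjusted p under 0.05). RBPJ, AP-1, TEAD, the CAGCTG E-box, the NFI motif, the CTCF core and the GC box passed against either flank. CCAAT was below in both, with 44.5% of untied intervals above the left and 42.0% above the right flank.

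Position within the interval was compared for the same motifs. RBPJ was left out, since the windows had been chosen on it, and these comparisons were added after seeing the data. They use the windows chosen on RBPJ in the same intervals and are not independent of that choice. GGAATG can share bases with TGGGAA, and CAGCTG with TTCCCA, and overlapping sites were not counted apart. The part of such overlaps in the TEAD and CAGCTG results was not tested. Of the other 15 motifs, 5 were denser in the end windows than in the centre, namely AP-1, TEAD (0.887 against 0.572 per kb, adjusted p = 3.33e-06), the CAGCTG E-box (0.804 against 0.512 per kb, adjusted p = 1.12e-06), the GC box (0.479 against 0.283 per kb, adjusted p = 0.000242) and the CTCF core, and 0 were denser in the centre (exact sign tests adjusted over 15 motifs, of which 7 had an unadjusted p under 0.05). The CTCF core was rare and rested on 16 untied intervals, 14 of them with more sites at the ends. CCAAT had 1.40 sites per kb at the ends and 1.39 in the centre. In multi-copy intervals 0 of these 15 motifs differed between ends and centre (exact sign tests, 0 with an unadjusted p under 0.05). Against the mean of both flanks 0 of 16 motifs passed there (exact sign tests, 0 with an unadjusted p under 0.05). Against the left flank alone, RBPJ was above in 61.5% of 122 untied multi-copy intervals (exact sign test, p = 0.0142, adjusted p = 0.227). The CAGCTG E-box was above in 60.4% of 106 (exact sign test, p = 0.0409, adjusted p = 0.327). Against the right flank alone these shares were 55.7% of 122 and 59.0% of 105. After adjustment 0 motifs passed against either single flank.

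Base composition moved along with the motifs. In low-copy intervals GC content was 50.4% and the soft-masked share 13.2% in the first 150 bp, compared with 47.3% and 19.9% between 300 and 750 bp and 45.4% and 26.4% outside. Over whole intervals, densities were also set beside those that the dinucleotide counts of each interval give. TGGGAA had 1.16 sites per kb against 0.862 from dinucleotides and the GC box 0.305 against 0.149, whereas AP-1 had 0.450 against 0.444 and the NFI motif 0.586 against 0.819. AP-1 was thus close to, and the NFI motif below, the density that the composition of the intervals gives, although both were above their flanks. In narrow distal peaks AP-1 had 1.05 against 0.409. The TGGGAA excess was not particular to the intervals, with 1.04 against 0.745 in broad promoter peaks and 2.08 against 0.808 in narrow distal peaks. No such value is given for the flanks. For the ends, the part of base composition was not tested.

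**Figure D4:**
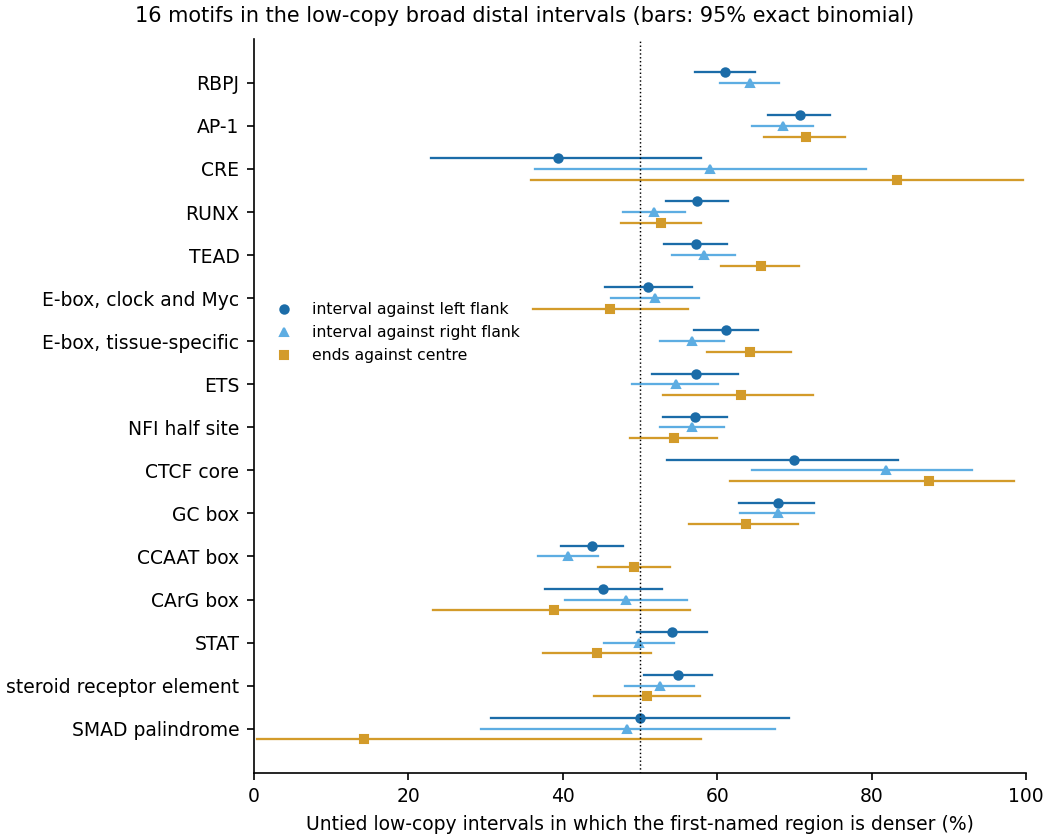
For each of the 16 motifs the percentage of untied low-copy intervals in which the interval was denser than its left flank (circles) or right flank (triangles), or its ends denser than its centre (squares), is shown with 95% exact binomial intervals, and the dotted line marks 50%. RBPJ has no square because the end windows were chosen on it. AP-1, TEAD, the GC box and the tissue-specific E-box lie right of the line in all 3 comparisons, and the CCAAT box lies left of it against both flanks.

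RBPJ can also bind as a pair of molecules on 2 sites that face each other. Head-to-head pairs, in which TGGGAA or TGAGAA on the plus strand is followed by TTCCCA or TTCTCA, were counted for gaps of 11 to 21 bp. There were 55 pairs in 50 intervals (5.52%), 47 of them in low-copy intervals. Pairs were found in 2.76% of the left and 2.98% of the right flanks and in 3.75% of the shorter narrow distal peaks. Per Mb these were 18.6 pairs in the intervals, 8.45 and 9.46 in the left and right flanks and 76.2 in narrow distal peaks, so pairs were densest in the narrow peaks. A gap of 14 bp was the most frequent with 12 pairs in 12 low-copy intervals, and the other gaps had between 1 and 7. The flanks held 1 (left) and 3 (right) pairs with a 14-bp gap, and narrow distal peaks 58. These counts are given without a test. Of these 12 pairs, 7 began or ended less than 200 bp from an interval end, compared with 11 of the 43 pairs at other gaps. The pairs near the ends were chosen for printing, leaving out none of the 7, with both hexamers in capitals and each named by the nearest gene.
Igfbp3, chr11:7763771-7763796, GRCm38.p6, + strand: TGGGAAgcagagagactggaTTCCCA
Cbx8, chr11:119045723-119045748, GRCm38.p6, + strand: TGAGAActcccaagtcagggTTCCCA
Pitrm1, chr13:6208957-6208982, GRCm38.p6, + strand: TGAGAAagtggaggtggaaaTTCCCA
Sugt1, chr14:79564981-79565006, GRCm38.p6, + strand: TGGGAAacaaatcccaggatTTCTCA
Mpeg1, chr19:12476894-12476919, GRCm38.p6, + strand: TGGGAAgctcctggtggactTTCCCA
Shc4, chr2:125729888-125729913, GRCm38.p6, + strand: TGAGAAtccacatctcctttTTCCCA
Col4a1, chr8:11258246-11258271, GRCm38.p6, + strand: TGAGAAcatgcacccacaaaTTCCCA
These genes can be remote, with 551 kb from the interval centre to the nearest coding TSS for Igfbp3 and 338 kb for Pitrm1 but 5.55 kb for Cbx8. The Col4a1 pair lies inside its gene, which encodes a collagen chain of the vascular basement membrane. The centre of its interval was 20.2 kb from the nearest coding TSS. The Igfbp3 pair started 82 bp and the Col4a1 pair 140 bp inside the interval. The Igfbp3 and Mpeg1 pairs consist of 2 full TGGGAA hexamers, whereas the other 5 combine it with the TGAGAA variant.

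The richest intervals by density were chosen among the 244 with at least 5 sites, and no test is given for them. An intronic interval in Cxxc5, which encodes a zinc finger protein of the Wnt and BMP pathways, had 11 sites in 2408 bp or 4.57 per kb, compared with 1.25 per kb in its flanks. The next were 3.95 per kb (7 sites) near Zfp36l2, an RNA-binding regulator of mRNA decay, 3.83 per kb (7 sites) near Zcchc24, 3.60 per kb (7 sites) in Frmd4b and 3.54 per kb (8 sites) in Saysd1. All 5 were low-copy, with at least 99.4% of 50-mers unique.

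Finally, intervals were assigned to genes by regulatory domains (5 kb upstream and 1 kb downstream of the gene start, extended up to 1 Mb to the next such domain). Of 21938 protein-coding genes, 1314 or 5.99% had a broad distal interval in their domain, 1055 of them 1, 185 of them 2 and 74 of them 3 or more. Most intervals per gene were counted for Prl2c3 (13), Tcp10c (11), Prl2c2 (10) and Gm15319 (9), which lie in the groups above, and 7 each for Afdn, a junctional adaptor, Klf3, a transcriptional repressor, and Zfp386. Distances below are from the gene's 5′ end to the interval centre, and a domain does not show which gene an interval acts on.

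Of 169 genes in lists of pathways and cell markers, 28 (16.6%) had a broad distal interval in their domain, against 5.99% of all protein-coding genes. Any RBPJ peak was found in the domains of 131 of them and of 45.6% of all protein-coding genes. The lists were chosen with results of these data known, and the lengths of domains were not matched, so no test is given. The share was 9 of 29 genes for TGF-beta and BMP signalling, 8 of 27 for matrix and matrix remodelling, 4 of 32 for the Notch pathway, 4 of 11 for genes the study names, 2 of 18 for AP-1, ATF, RUNX and TEAD factors, 1 of 15 for integrins (Itgb5) and 1 of 16 for vessel growth signals (Cxcl12). All 28 nearest intervals were low-copy, with between 94.9% and 100% of their 50-mers unique. They held 106 TGGGAA sites, 40 of which (37.7%) were in the end windows that make up 21.7% of their length, and 20 of the 28 had a site there. Over all 757 low-copy intervals, 25.6% of sites were in the 17.3% of length that the end windows make up, and 454 of the intervals had a site there, so nothing particular to the listed genes is read from this. TGGGAA density was above that of the flanks in 18 of the 28, below it in 8 and equal in 2, and 11 of the 28 intervals lay nearer to another gene than to the listed one.

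Among Notch pathway genes, Hes1, the repressor that is the best known Notch target, had a 2356-bp interval centred 4.79 kb upstream. This distance is to the gene's 5′ end, whereas the nearest TSS of a coding transcript was 5748.5 bp from the centre. The interval held 2 TGGGAA sites, 0.849 per kb against 1.70 per kb in the flanks, and neither was in an end window. Nrarp, a feedback inhibitor of Notch, had a 2114-bp interval 11.7 kb upstream with 5 sites, 4 of them in the end windows, and 3 of the 5 lie in the window printed above. Rbpj itself had a 2220-bp interval 27.3 kb upstream with 3 sites, 2 of them in the window printed above and 1 in an end window. The interval assigned to Notch1, encoding a Notch receptor, measured 1943 bp, lay 39.4 kb upstream and held 4 sites, 3 of them within 1 window of 200 bp near the left end. Its density of 2.06 per kb was equal to that of its flanks, and its nearest gene was Egfl7, 23.9 kb away.

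TGF-beta and BMP genes had intervals at ligands, receptors and intracellular mediators. Those of receptors were 6.56 kb upstream of Tgfbr3 (betaglycan, a coreceptor), 16.2 kb downstream of the start of Acvrl1 (ALK1, a receptor of BMP9 whose loss causes vascular malformations) and 697 kb upstream of Tgfbr2. The signal transducer Smad3 had an interval in its own gene, 12.3 kb downstream of the start, with 4 TGGGAA and 4 AP-1 motifs. The inhibitory Smad7 had 3 intervals, the nearest 88.8 kb downstream and inside the neighbouring gene Ctif. For ligand genes the nearest intervals were at 245 kb for Bmp4, 271 kb for Inhba and 450 kb for Tgfb2, and Ltbp1, which tethers latent TGF-beta to the matrix, had an interval in its own gene at 106 kb. The Bmp4 interval had 6 TGGGAA and 4 AP-1 motifs in 1817 bp, with a TGGGAA density of 3.30 per kb against 1.65 per kb in the flanks, and the nearest gene was Cdkn3, 125 kb away. The Smad3 interval had 1.05 per kb against 1.18 in the flanks.

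Matrix genes were represented by adhesive glycoproteins, collagens and protease inhibitors. The interval 54.7 kb upstream of Tgfbi, which encodes a matrix protein that binds integrins, was the richest of the listed ones. Its 2861 bp held 10 TGGGAA sites, 3.50 per kb against 0.524 per kb in the flanks, and 5 of the 10 were in the end windows. The gene nearest to that interval was Lect2, whose start was 6310 bp away. Fn1 (fibronectin) had 2 intervals, and the nearest, 66.7 kb upstream, had 1.90 sites per kb against 0.316 in the flanks. Thbs1 (thrombospondin, an activator of latent TGF-beta) had 2 intervals, the nearest 541 kb upstream. That interval had 0.726 sites per kb against 1.27 in the flanks, and the gene nearest to it was Rasgrp1. Collagen genes with an interval were Col5a1 (45.0 kb, in its own gene, 5 sites), Col4a2 (53.4 kb, inside Col4a1, with the pair printed above) and Col1a2 (86.5 kb). TGGGAA density was above that of the flanks at Col5a1 and Col1a2 and below it at Col4a2 (1.13 against 1.89 per kb). Timp2 and Timp3, inhibitors of matrix metalloproteases, had intervals at 6.47 and 104 kb. Timp2 had 6 sites, 1.86 per kb against 0.929 in the flanks, and Timp3 had 2, 1.24 per kb against 1.86.

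Other listed genes were the AP-1 subunit Fos, with 3 intervals and the nearest 13.1 kb downstream, Atf3 (58.8 kb upstream, 1 site), the integrin Itgb5 (43.1 kb, in its own gene) and the chemokine Cxcl12 (483 kb). Of the marker lists, 0 of 7 pericyte, 0 of 3 astrocyte and 0 of 4 microglia markers had a broad distal interval, 4, 1 and 1 of these genes having a peak of any kind. With lists this short and 5.99% of all genes holding an interval, nothing is read from these zeros. The smooth muscle list had 1 of 10 (the filament gene Vim, 16.3 kb), the endothelial list 1 of 5 (Kdr, 222 kb) and the fibroblast list 1 of 4 (Pdgfra, 3 intervals, the nearest 34.1 kb away and in the gene). TGGGAA density was below that of the flanks at Atf3 (0.423 against 0.847 per kb), Vim (0.411 against 1.23) and Pdgfra (1.61 against 1.81). At Fos, Itgb5, Cxcl12 and Kdr it was above. A peak near a marker gene is not expression and does not type the cells.

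**Figure D5:**
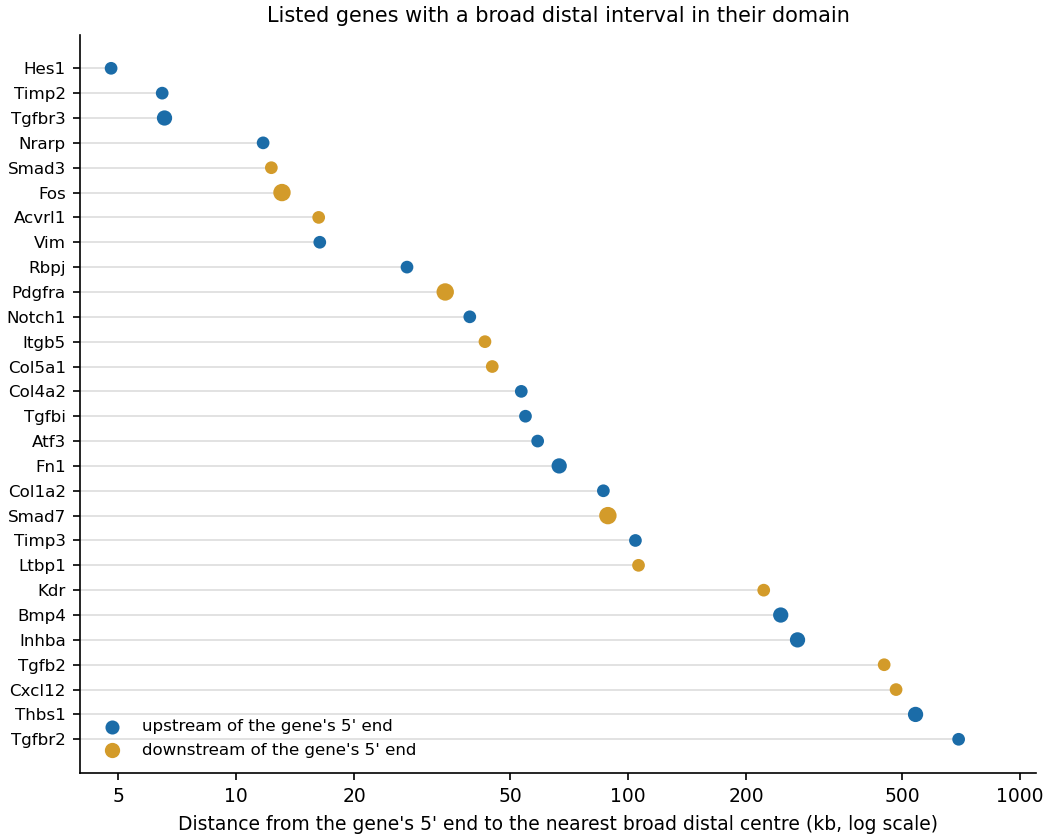
For the 28 listed genes, the distance in kb (log scale) from the gene's 5′ end to the centre of the nearest broad distal interval in its domain is shown, with upstream intervals in blue, downstream ones in orange, and larger points for genes with 2 or 3 intervals. Distances run from 4.79 kb at Hes1 to 697 kb at Tgfbr2.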

How the data were processed

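Reads were aligned by the authors to GRCm38 with bowtie, which reported 1 position per read and dropped reads matching more than 3 places, and duplicates were removed. Per the methods, MACS2 and PeakRanger calls were merged within 2 kb (the deposited list still holds closer peaks), a site needed 3 or more overlapping calls among the 2 methods and 2 replicates, and blacklisted regions were removed. The deposited values are other than signal: starts and ends in bp of 1 consensus list, in 2 identical copies counted once. Depth per sample is not given in the files used here.

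Members, gene lists and motifs were chosen with earlier results of these data known. Starts were read as counted from 1, and counting from 0 would move them by 1 bp. Classes were set with 54327 coding TSSs. Flanks were the adjacent windows of equal width. The genes named were the 5 widest and 5 densest intervals, the 5 genes with most intervals and ties, list genes with an interval (values within 100 kb or with 3 intervals, while values of farther ones, the Camk2a and Trim11 intervals and printed sequences were picked after their values were seen), and 3 sites to either side of the width limit. The ends against centre and single-flank comparisons were added after seeing the data. Tests were two-sided. The k-mer counts, sign tests, domains and pairs were tested on simulated data. Alternatives covered width, distance, repeats, copy number, windows, flanks, motifs and domains. An item is not reported here. Calculations used Python 3.11.15, numpy 2.4.6, scipy 1.17.1, pandas 2.3.3, numba 0.67.0 and matplotlib 3.10.9.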

Additional observations from a re-analysis of the deposited data

How the results depend on the processing

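Of 92 alternatives that could change a value, 80 kept the direction and the side of the threshold (or, for counts, stayed within 1.5 times). Another 22 left out a replicate and, the files being identical, returned the reported values by construction, from 906 to 906 intervals, 60.8 to 60.8% above flanks and 64.6 to 64.6% with denser ends. No paired analysis was possible because only 1 group, with identical files, had peaks. A minimum width of 3000 bp left 272 intervals, 2 motifs above flanks and 56.6% with denser ends, and made the intronic difference -11.2 points (Fisher's exact test, adjusted p = 0.000238). That difference was, by the same exact test, -3.75 points at 1000 bp (adjusted p = 0.0215), -4.52 at 2000 bp (adjusted p = 0.0307) and, without multi-copy intervals, 0.723 (adjusted p = 0.890), where the repeat difference fell to 0.863 points (adjusted p = 0.281). Of the motifs, 3 were above flanks with soft-masked bases left out, and 10 against the left flank alone. GTGGGAA gave 52.8% above the mean of both flanks (exact sign test, p = 0.163) but 58.3% and 57.9% above the left and right flank alone, both added after seeing the data. Basal domains alone left 1 listed gene. The cause was not tested in any of these. Since the list has no scores, limits set by depth could not be assessed.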

Other observations

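In broad promoter peaks, which were not among the intervals described, the ends held 1.44 and the centre 0.849 TGGGAA sites per kb (ratio 1.70, 725 untied peaks), while AP-1 motifs were at 0.347 per kb in the first 150 bp and 0.289 outside.

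When the distance to starts of non-protein-coding genes was measured from the interval edges in place of the centre, an alternative added after seeing the data, 830 of the 906 intervals were left. Of the 906, 157 overlapped a gene of a non-protein-coding class and 394 a protein-coding gene.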
